A study of Mus musculus with 17 samples.

Results

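The RAB small GTPases were followed through a dilution series of 1 cortical mRNA. Members were all genes whose single symbol in the annotation of the array is Rab followed by a number and, where there is one, a letter. This gave 59 of 18193 genes, measured by 132 of 45037 probe sets. The mRNA, isolated from adult female C57BL/6 mouse cortex, was read on 17 Affymetrix mouse expression arrays. Dilutions of 0.1, 1 and 10 pg were amplified for 4 rounds with 3 arrays each, and 0.1 and 1 pg for 2 rounds with 3 arrays each. A single array holds 10 pg after 2 rounds, and a single array, called bulk, holds 5 µg of the unamplified mRNA. Strain, sex and RNA are shared by all groups. Replicates are repeated amplifications, so that p-values speak of the amplification and say nothing of differences between mice, and precision is limited by how few arrays each group has.

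RAB proteins are membrane-bound switches of vesicle traffic. In the GTP-bound form they recruit tethers and motors to a given membrane, exchange factors load them with GTP, GTPase-activating proteins switch them off, and GDI extracts them from the membrane in the GDP-bound form. In neurons they serve synaptic vesicle release as well as the endosomes and Golgi carriers that supply axons and dendrites. The members are described here by the compartment they are best known for.

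The deposited log2 values were centered on the median of each array and scaled by the range between the 10th and the 90th percentile. A level is therefore a log2 distance from the array median, and each gene is read from the probe set with the highest mean. Signals of different probe sets are not amounts of transcript, and the background was not measured, so changes below the array median are less certain in size. Only 895 distinct values occur on the 10 pg array amplified for 2 rounds, against 1276 to 4360 on the other 16 arrays. The 9 measured markers of cortical neurons had a median of 4.25 in bulk, with 0 of the 9 below the array median, while the 4 markers of choroid plexus had a median of -0.19. A gene is called higher or lower where limma, fitted to the 7 group means over all 17 arrays, gave a Benjamini-Hochberg adjusted p under 0.05.

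Most RAB genes lay above the array median in unamplified cortex mRNA, which is not a threshold of detection. In bulk, 45 of the 59 members lay above the array median, where 61% of all genes did, and their median level was 1.07, against 0.42 for all genes. Taken as a median over each gene's probe sets, the members' median level was 0.02 at 0.1 pg after 4 rounds and 0.36 in bulk. After 4 rounds the members' median over the group means was 0.55 at 0.1 pg, while it was 1.11 at 1 pg and 1.05 at 10 pg. After 2 rounds it was 0.49 at 0.1 pg and 0.76 at 1 pg, with 1.27 on the 10 pg array. Within groups the median SD of the members was 0.49 at 0.1 pg after 4 rounds and 0.77 at 0.1 pg after 2 rounds and that of all genes 0.41 and 0.82.

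**Figure D1:**
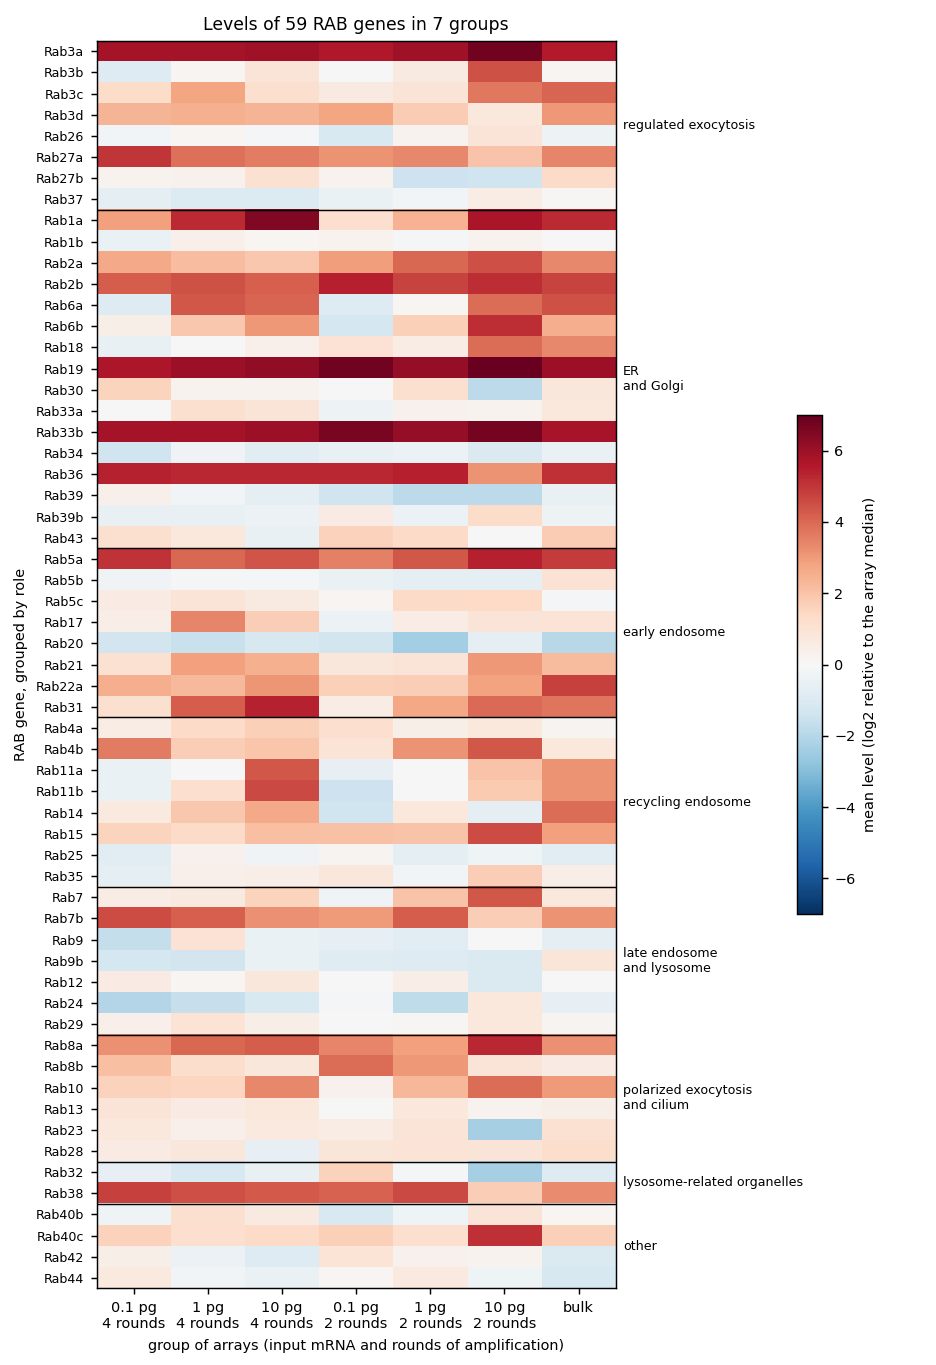
Mean level of the 59 RAB genes (rows, grouped by role) in the 7 groups of arrays (columns), in log2 relative to the array median, with red above and blue below it; bulk and 10 pg after 2 rounds are 1 array each. Rab3a, Rab19 and Rab33b are red in all 7 groups, whereas Rab6a, Rab11a and Rab11b are red in bulk and at 10 pg and near or below the median at 0.1 pg.

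The members with the highest signal in bulk were Rab19, Rab33b, Rab3a, Rab1a, Rab36 and Rab5a. Rab3a, the RAB of synaptic vesicles, read 5.73, 5.68 and 5.99 at 0.1 pg, 5.70, 5.95 and 5.80 at 1 pg and 6.27, 5.79 and 5.76 at 10 pg after 4 rounds. After 2 rounds it read 5.64, 5.59 and 5.55 at 0.1 pg, 6.03, 5.95 and 5.90 at 1 pg and 6.78 on the 10 pg array, against 5.56 in bulk. All 17 arrays thus lay within a range of 1.23, the narrowest of the 59 members, and this probe set, 1459980_x_at, is of a kind that may match several transcripts. The other probe set of Rab3a, 1422589_at, averaged 1.13 ± 0.50 at 0.1 pg and 1.41 ± 0.60 at 10 pg after 4 rounds (SD, n = 3 each), against 2.71 in bulk.

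Rab19 and Rab33b, both placed at the Golgi, had ranges of 1.42 and 1.43 over the 17 arrays. After 4 rounds Rab19 averaged 5.68 ± 0.13 at 0.1 pg, with 6.00 ± 0.33 at 1 pg and 6.23 ± 0.11 at 10 pg (SD, n = 3 each), against 6.00 in bulk. Rab33b, which also acts in autophagosome formation, averaged 5.80 ± 0.35 at 0.1 pg, with 5.82 ± 0.33 at 1 pg and 5.97 ± 0.15 at 10 pg (SD, n = 3 each), against 5.77 in bulk. After 2 rounds Rab19 averaged 6.75 at 0.1 pg and 6.14 at 1 pg, with 6.90 on the 10 pg array. Rab33b averaged 6.66 at 0.1 pg and 6.14 at 1 pg after 2 rounds, with 6.69 on the 10 pg array. Neither gene was called in any of the 6 comparisons. Rab36, another Golgi RAB, averaged 5.39 ± 0.56 at 0.1 pg and 5.26 ± 0.13 at 10 pg after 4 rounds (SD, n = 3 each), against 5.09 in bulk, and stood apart only on the 10 pg array after 2 rounds, at 3.12. Rab5a, which drives the fusion of early endosomes, read 5.08, 4.88 and 5.21 at 0.1 pg after 4 rounds, with 4.88 in bulk. At 10 pg after 4 rounds it read 5.23, 5.44 and 2.56, so that replicate 3 was low. A range under 2 over the 17 arrays was found in 4 of the 59 members, or 6.78%, and in 10.3% of all genes.

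**Figure D2:**
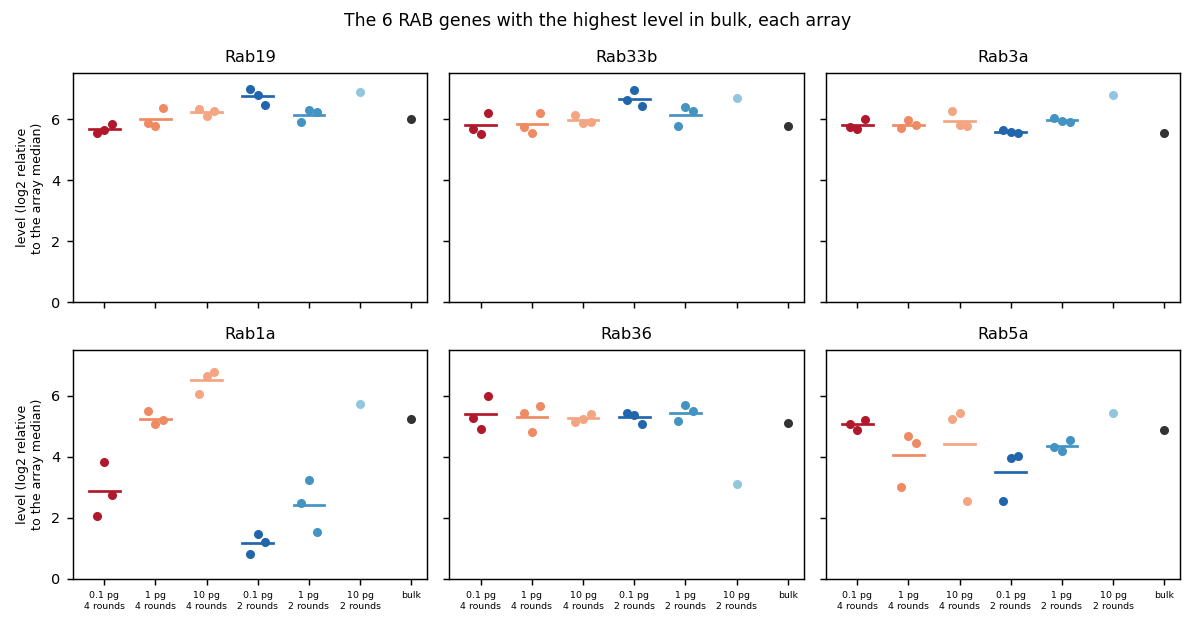
Level of the 6 RAB genes with the highest signal in bulk on each of the 17 arrays (points) in log2 relative to the array median, by group, with the mean of groups of 3 as a line. Rab19, Rab33b and Rab3a keep to a narrow band, whereas Rab1a reads 2.06 to 3.82 at 0.1 pg after 4 rounds, against 6.06 to 6.78 at 10 pg.

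The members with the lowest signal in bulk were Rab20 at -1.92, Rab44 at -1.14, Rab42 at -0.99, Rab32 at -0.90, Rab25 at -0.77 and Rab9 at -0.60. Rab25 belongs to the Rab11 group and is known from epithelia, Rab32 serves lysosome-related organelles such as melanosomes, and Rab9 returns receptors from late endosomes to the Golgi. Rab20 was below the array median on all 17 arrays, with a highest level of -0.48. Rab44 after 4 rounds averaged 0.67 at 0.1 pg and -0.47 at 10 pg, and the 3 arrays at 0.1 pg lay above the 3 at 10 pg. That difference of 1.13 was not called (adjusted p = 0.135). Rab42 averaged 0.42 at 0.1 pg and -0.88 at 10 pg after 4 rounds, Rab25 -0.80 and -0.27, and Rab9 -1.67 and -0.46, and these differences were not called either.

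The widest difference in input with replicates was 0.1 against 10 pg after 4 rounds. Of the 59 members, 9 were lower at 0.1 pg, or 15.3%, against 4.99% of all genes, and 0 were higher, against 4.99% of all genes. These are Rab1a, Rab3b, Rab6a, Rab6b, Rab10, Rab11a, Rab11b, Rab14 and Rab31, so they come from 5 of the 8 role groups, with 3 of 16 ER and Golgi RABs and 3 of 8 recycling RABs among them. At an unadjusted p under 0.05 there were 18 members, or 30.5%, against 27.1% of all genes. The median difference over the members was -0.17, against 0.13 over all genes, and 39 of the 59 members were below 0, as were 44.8% of all genes.

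Among the RABs of the ER and Golgi, Rab6a had the largest of the 3 called differences. Rab6a, which directs transport within the Golgi and back to the ER, read -0.88, -0.38 and -1.42 at 0.1 pg, 4.87, 3.56 and 4.61 at 1 pg and 4.96, 4.57 and 2.63 at 10 pg after 4 rounds, against 4.46 in bulk. All 3 arrays at 0.1 pg were below the array median, and the arrays at 1 and 10 pg overlapped. The difference between 0.1 and 10 pg was -4.95 (SE 0.62, adjusted p = 0.000232, limma). Rab1a, which controls transport out of the ER, read 2.06, 3.82 and 2.76 at 0.1 pg, 5.49, 5.06 and 5.19 at 1 pg and 6.06, 6.65 and 6.78 at 10 pg after 4 rounds, against 5.24 in bulk. The 3 inputs did not overlap, and 0.1 pg stayed above the array median, at -3.62 from 10 pg (SE 0.51, adjusted p = 0.000545, limma). Rab6b, the form of Rab6 that is enriched in neurons, read 0.98, 0.29 and -0.09 at 0.1 pg, against 4.17, 3.63 and 1.27 at 10 pg. These groups did not overlap but came close through replicate 3 of 10 pg, which was also the lowest of that group in Rab6a. The difference was -2.63 (SE 0.75, adjusted p = 0.0396, limma).

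Both Rab11 genes of the recycling endosome were near the array median at 0.1 pg. Rab11a, a core RAB of recycling endosomes and of receptor delivery into spines, read -0.35, -0.48 and -0.50 at 0.1 pg, against 4.08, 4.83 and 4.13 at 10 pg after 4 rounds and 3.15 in bulk. Its close paralog Rab11b read -0.57, -0.30 and -0.50 at 0.1 pg, against 4.60, 4.82 and 4.42 at 10 pg and 3.14 in bulk. In both genes the groups were far apart, with differences of -4.79 (SE 0.75, adjusted p = 0.00111) in Rab11a and -5.07 (SE 0.70, adjusted p = 0.000465) in Rab11b by limma. Rab14, which links the Golgi and recycling endosomes, read 0.53, 0.34 and 1.11 at 0.1 pg, against 3.54, 3.36 and 1.12 at 10 pg. The closest arrays of the groups, replicate 3 of each, read 1.11 and 1.12. The difference of -2.01 (SE 0.60, adjusted p = 0.0466, limma) was just past the threshold.

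The other called members serve the early endosome and exocytosis. Rab31, which carries cargo from the Golgi to endosomes, read 0.13, -0.29 and 3.59 at 0.1 pg, against 5.33, 5.30 and 5.49 at 10 pg after 4 rounds. A single array at 0.1 pg lay well above the other 2, and the difference was -4.23 (SE 0.95, adjusted p = 0.0113, limma). Rab10, which acts in the delivery of membrane to the axon, read 1.86, 1.98 and 1.02 at 0.1 pg, against 3.33, 3.49 and 3.32 at 10 pg, a difference of -1.76 (SE 0.48, adjusted p = 0.0314, limma). Rab3b, a RAB of secretory and synaptic vesicles, read -0.59, -0.64 and -1.47 at 0.1 pg, against 0.94, 0.47 and 1.36 at 10 pg, a difference of -1.82 (SE 0.48, adjusted p = 0.0264, limma). In Rab10 and Rab3b the groups did not overlap, although Rab3b read only 0.13 in bulk.

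**Figure D3:**
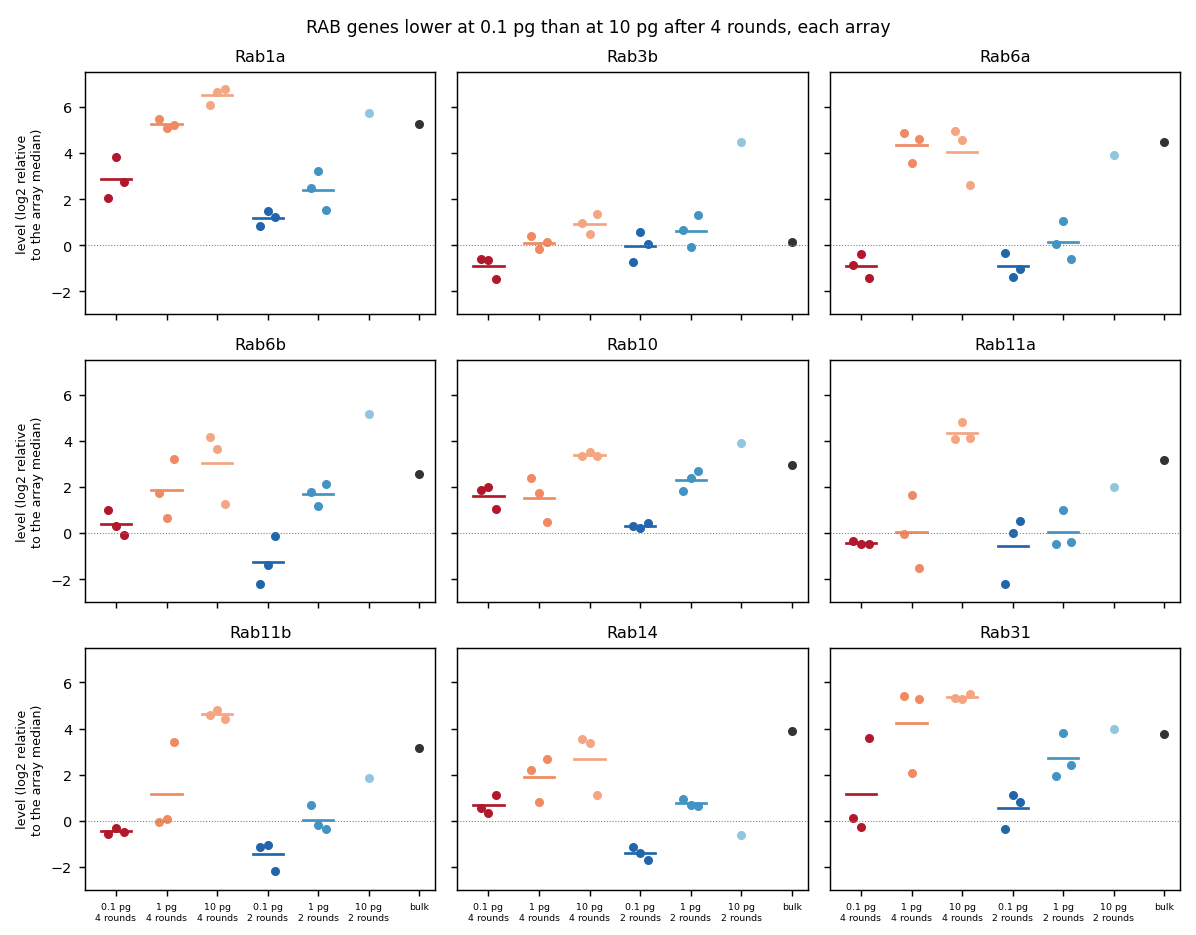
Level of the 9 RAB genes called lower at 0.1 than at 10 pg after 4 rounds on each of the 17 arrays (points), in log2 relative to the array median, by group, with the mean of groups of 3 as a line. In all 9 genes the 3 arrays at 0.1 pg lie below the 3 at 10 pg after 4 rounds, and the 3 arrays at 0.1 pg after 2 rounds lie below the single array at 10 pg.

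Leaving out 1 array moved the count to between 4 and 9. It was 4 without replicate 1 or without replicate 2 of 0.1 pg, 5 without replicate 3 of 0.1 pg or without replicate 1 of 10 pg and 6 without replicate 2 of 10 pg. Without replicate 3 of 10 pg it was 9, of which 7 were lower and Rab27a and Rab4b were higher. Over all probe sets these fits gave 1083 to 2051 lower and 418 to 1763 higher calls, against 2173 and 1818 with all arrays. Rab1a, Rab6a, Rab11a and Rab11b were called lower in all 6 of these fits. Taken as the median over its probe sets, however, Rab1a differed by -1.46 (adjusted p = 0.185, limma) and Rab11b by -0.37 (adjusted p = 0.682, limma), so that neither was called. Nor were Rab10 at -0.59 (adjusted p = 0.450, limma) and Rab14 at -1.06 (adjusted p = 0.0852, limma), and 5 of the 9 genes were called both ways. The call of Rab10 was lost in all 6 of these fits, and those of Rab14, Rab3b and Rab6b in 5 of 6.

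Arrays outside this contrast gave the same order for these genes. After 2 rounds, where 10 pg has 1 array, the 3 arrays at 0.1 pg all lay below it in 9 of the 9 genes. This was so in 26 of the 59 members, or 44.1%, against 25.6% of all genes, while in 9 members, or 15.3%, all 3 lay above it, against 32.5% of all genes. They lay below it in 76% of the 908 genes called lower after 4 rounds. The calls were also set against the level in bulk. Of the 21 members at a level of 3 or more in bulk, 6 were lower at 0.1 pg after 4 rounds, or 28.6%, against 12.6% of the 2693 genes at such a level. Of the 24 members between 0 and 3, 3 were lower, or 12.5%, against 5.91% of all genes there, and of the 14 members below 0 none was lower, against 1.01%.

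By count of arrays without regard to the test, 17 of the 59 members had all 3 arrays at 0.1 pg below the 3 at 10 pg, or 28.8%, against 17.9% of all genes. In 5 members, or 8.47%, all 3 were above, against 25.9% of all genes. The 5 are Rab30, Rab42, Rab43, Rab44 and Rab8b, with differences between 1.13 in Rab44 and 1.68 in Rab43, and none was called. With only these groups in the fit Rab30, Rab42 and Rab43 were called higher, and 9 were lower, with Rab17 in place of Rab14. That fit called 3674 of all 45037 probe sets lower and 4428 higher, against 2173 and 1818 in the fit of all 17 arrays.

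By role, the median difference between 0.1 and 10 pg after 4 rounds was -1.14 over the 8 recycling RABs, -0.76 over the 7 late endosome and lysosome RABs, -0.36 over the 16 ER and Golgi RABs and -0.35 over the 8 early endosome RABs. It was -0.06 over the 8 RABs of regulated exocytosis and 0.08 over the 6 of polarized exocytosis and cilium, and 0.23 over the 2 RABs of lysosome-related organelles and 0.70 over the 4 remaining members, Rab40b, Rab40c, Rab42 and Rab44. Of the 9 cortical neuron markers, 4 were lower at 0.1 pg and 5 were not called. Their median per array was between -0.15 and 2.65 at 0.1 pg, against 3.88 to 4.28 at 10 pg, with 3 of 9 genes below the array median at 0.1 pg and 2 of 9 at 10 pg, and the 4 are Snap25 at -3.65, Neurod6 at -4.42, Nefl at -5.05 and Eno2 at -5.38. The 5 not called differed by 0.56 in Syp, 0.15 in Tbr1, 0.13 in Syt1, -0.31 in Slc17a7 and -0.38 in Camk2a. The astrocyte markers read 1.21 to 1.94 at 0.1 pg and 0.42 to 1.81 at 10 pg, and the oligodendrocyte markers 1.22 to 2.57 and 0.19 to 0.57. Of the other lists, 0 of 6 astrocyte, 0 of 6 microglial, 0 of 2 blood and 0 of 4 choroid plexus markers were called, 1 of 6 of inhibitory neurons was lower (Slc32a1), 1 of 5 of oligodendrocytes was higher (Mbp), and among the 6 of vessels Kdr was lower and Pdgfrb higher. Probe sets at the ends of Gapdh differed by 3.71 ± 0.03 between the 3′ and the 5′ end at 0.1 pg and by 4.73 ± 0.21 at 10 pg (SD, n = 3 each), and those of Tfrc by 6.62 ± 0.77 and 4.73 ± 0.18. Those of Actb differed by -0.81 ± 0.16 at 0.1 pg and by 1.13 ± 0.55 at 10 pg (SD, n = 3 each). All arrays hold the same mRNA, so that the cells it came from do not differ between the groups. The part of these measures in the RAB result was not tested.

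Probe sets of 1 RAB gene often differed. Of the 132 probe sets, 19 were lower at 0.1 pg, or 14.4%, against 4.82% of all probe sets, and 2 were higher, or 1.52%, against 4.04%. Of the 59 genes, 38 have several probe sets. In 3 of these, Rab6a, Rab6b and Rab14, another probe set was called along with the one that stands for the gene, and 7 genes were called only in another probe set.

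Rab2a, which acts between the ER and the Golgi, shows such a split. Its representative probe set 1449676_at read 3.43, 2.13 and 2.41 at 0.1 pg, against 1.48, 2.52 and 1.70 at 10 pg after 4 rounds, while its probe set 1418622_at read -2.30, -3.36 and -1.81 at 0.1 pg, against 2.36, 4.78 and 2.78 at 10 pg and 5.09 in bulk. The second of these differed by -5.80 (SE 0.91, adjusted p = 0.00112, limma), and a further one, 1418621_at, by -2.65 (adjusted p = 0.017). Rab6b likewise had a larger difference in the probe set 1437107_at, at -0.24, -0.76 and -0.50 at 0.1 pg, against 5.44, 5.10 and 4.52 at 10 pg, or -5.52 (SE 0.52, adjusted p = 4.4e-05, limma).

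Rab3c, a RAB of synaptic vesicles, was called in opposite directions. Its probe set 1449494_at read -2.52, -2.45 and -0.87 at 0.1 pg, against 3.48, 3.21 and 0.50 at 10 pg, a difference of -4.35 (adjusted p = 0.00304, limma). Its probe set 1432415_at read 1.26, 0.83 and 1.02 at 0.1 pg, against -0.77, -1.21 and 0.08 at 10 pg, a difference of 1.67 (adjusted p = 0.0297). The representative probe set of Rab3c differed by 0.15 (adjusted p = 0.944), with wide scatter between arrays. Rab21, which sorts integrins in early endosomes, was called in 1437741_at, at -0.91, -1.30 and 2.57 at 0.1 pg, against 4.49, 5.44 and 2.97 at 10 pg (difference -4.18, adjusted p = 0.0155), and not in its representative, at -1.41 (adjusted p = 0.290). Rab22a was called in 1451379_at (difference -3.44, adjusted p = 0.000953), Rab7 in 1448159_at (-2.25, adjusted p = 0.0321) and Rab7b in 1444063_at (-2.11, adjusted p = 0.0149). Rab2b was higher in 1455857_a_at (difference 1.42, adjusted p = 0.0468).

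In 5 genes only the representative probe set was called, namely Rab1a, Rab10, Rab11a, Rab11b and Rab31. The second probe set of Rab11a, 1449256_a_at, read -0.61, -0.21 and -0.57 at 0.1 pg and -0.40, -0.56 and -0.95 at 10 pg, so it was low in both groups, with 5.83 on 1 array of 1 pg. The second probe set of Rab31, 1416165_at, read 0.84, 0.53 and -0.23 at 0.1 pg and 0.14, 0.62 and 0.29 at 10 pg. The other probe sets of Rab11b averaged 0.55 at 0.1 pg and 0.35 at 10 pg in 1435253_at, and 0.06 and -1.11 in 1439508_at, so neither averaged lower at 0.1 pg. Those of Rab10 averaged 1.59 at 0.1 pg and 1.58 at 10 pg in 1453095_at, and 1.29 and 1.72 in 1429296_at. Those of Rab1a averaged -0.76 at 0.1 pg and 0.45 at 10 pg in 1448210_at, and -1.77 and -0.04 in 1457537_at, lower on average at 0.1 pg but not called. In all 5 genes the call therefore rests on 1 probe set, which for Rab31 is 1431691_a_at, whose name marks probes shared by transcripts of the gene.

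**Figure D4:**
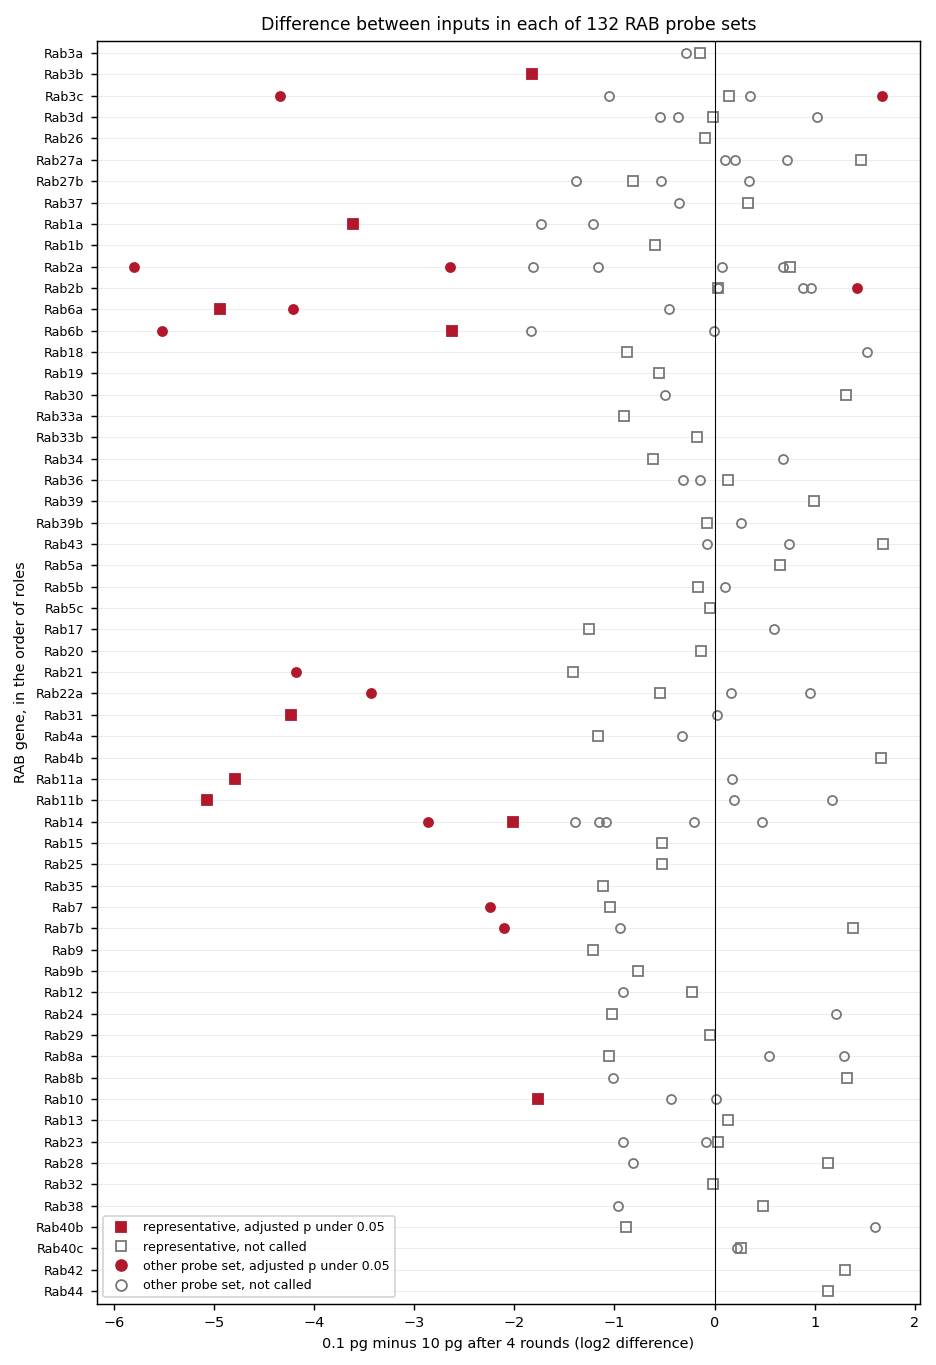
Difference between 0.1 and 10 pg after 4 rounds (horizontal axis, log2) in each of the 132 probe sets of the 59 RAB genes (rows), with squares for the probe set that stands for the gene, circles for others and red where the adjusted p was under 0.05. The 19 lower and 2 higher probe sets are red, and the probe sets of Rab2a and Rab3c lie on both sides of 0.

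The first step of dilution was 1 against 10 pg after 4 rounds, which shares the 10 pg arrays with the comparison above. Of the 59 members, 2 were lower at 1 pg, or 3.39%, against 0.577% of all genes, and 0 were higher, against 0.0715%. At an unadjusted p under 0.05 there were 5, or 8.47%, against 9.86% of all genes. Rab11a read -0.03, 1.66 and -1.51 at 1 pg, against 4.08, 4.83 and 4.13 at 10 pg, a difference of -4.31 (SE 0.75, adjusted p = 0.0117, limma). Rab11b read -0.05, 0.08 and 3.43 at 1 pg, against 4.60, 4.82 and 4.42 at 10 pg, a difference of -3.46 (SE 0.70, adjusted p = 0.0295, limma). The arrays did not overlap in either gene, and the third array of Rab11b at 1 pg lay much nearer to 10 pg than the other 2. Leaving out 1 array gave 0 members without replicate 1 of 10 pg, 3 without replicate 3 of 1 pg, where Rab9 was higher, and 1, Rab11a, without each of the other 4 arrays. Neither gene was called with the median of its probe sets or with only these groups in the fit.

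Rab6a, Rab31 and Rab1a, lower at 0.1 pg, were not called at 1 pg. Rab6a averaged 4.34 ± 0.69 at 1 pg and 4.05 ± 1.25 at 10 pg (SD, n = 3 each), a difference of 0.29 (adjusted p = 0.960), and Rab31 averaged 4.25 ± 1.90 at 1 pg and 5.37 ± 0.10 at 10 pg (difference -1.12, adjusted p = 0.824). Rab1a averaged 5.25 ± 0.22 at 1 pg and 6.50 ± 0.38 at 10 pg, and its difference of -1.25 was not called (adjusted p = 0.408) although the arrays did not overlap. Among probe sets, 3 of 132 were lower, or 2.27%, against 0.584% of all probe sets, and 0 were higher, against 0.0622%, the third being 1437107_at of Rab6b at -2.66 (adjusted p = 0.0232).

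Averaged over 2 and 4 rounds, 3 members were lower at 0.1 than at 1 pg, or 5.08%, against 1.28% of all genes, and 0 were higher, against 0.22%. Rab6a read -0.88, -0.38 and -1.42 at 0.1 pg, against 4.87, 3.56 and 4.61 at 1 pg after 4 rounds. After 2 rounds it read -0.35, -1.39 and -1.04 at 0.1 pg, against 0.03, 1.03 and -0.61 at 1 pg. The groups were far apart after 4 rounds and overlapped after 2, and the average difference was -3.16 (SE 0.44, adjusted p = 0.00156, limma). Rab1a after 2 rounds read 0.82, 1.48 and 1.21 at 0.1 pg, against 2.47, 3.23 and 1.54 at 1 pg. With the values after 4 rounds given above, its arrays at 0.1 pg lay below those at 1 pg for both numbers of rounds, and the average difference was -1.81 (SE 0.36, adjusted p = 0.0208, limma).

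Rab17, known from transport through polarized epithelial cells, was the third. It read 0.37, 0.34 and 0.69 at 0.1 pg, against 2.92, 2.89 and 4.38 at 1 pg after 4 rounds. After 2 rounds it read 0.00, -0.47 and -0.68 at 0.1 pg, against 0.62, 0.24 and 0.68 at 1 pg. The difference was -1.91 on average (SE 0.31, adjusted p = 0.00473, limma), with no overlap for either number of rounds. The other probe set of Rab17, 1422178_a_at, was not called and averaged higher at 0.1 pg. It averaged 1.06 at 0.1 pg against 0.74 at 1 pg after 4 rounds, and 1.86 against 1.15 after 2 rounds. In Rab1a too only the representative probe set was called. Rab17 at 10 pg after 4 rounds read 1.57, 1.87 and 1.73 and in bulk 0.93, so its highest arrays were those of 1 pg after 4 rounds. The call of Rab1a was lost in 4 of the 12 fits that leave out 1 array, and those of Rab6a and Rab17 in none. Under the other ways of processing, Rab17 was called in 6 of 9, Rab1a in 7 of 10 and Rab6a in 8 of 10. Without replicate 2 of 1 pg after 4 rounds the count was 6, with Rab14, Rab31 and Rab6b added. At an unadjusted p under 0.05 there were 16 members, or 27.1%, against 15.6% of all genes. Among probe sets, 6 of 132 were lower, or 4.55%, against 0.986%, and 0 were higher, against 0.255%.

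The number of rounds was compared as 4 against 2 rounds, averaged over 0.1 and 1 pg. After 4 rounds 4 members were higher, or 6.78%, against 2.36% of all genes, and 2 were lower, or 3.39%, against 1.9%. Higher were Rab1a by 2.27 (SE 0.36, adjusted p = 0.00389), Rab6a by 2.11 (SE 0.44, adjusted p = 0.0168), Rab17 by 1.87 (SE 0.31, adjusted p = 0.00561) and Rab14 by 1.61 (SE 0.42, adjusted p = 0.0449) in limma. For Rab14 the arrays read 0.53, 0.34 and 1.11 after 4 rounds, against -1.15, -1.39 and -1.72 after 2 rounds at 0.1 pg, and 2.20, 0.80 and 2.69, against 0.96, 0.69 and 0.65 at 1 pg. They were separate at 0.1 pg and overlapped at 1 pg. Rab1a, Rab6a and Rab17 are also the 3 genes that were lower at 0.1 than at 1 pg, a comparison that uses the same 12 arrays. In Rab1a, Rab6a, Rab14 and Rab17 only the representative probe set was called for rounds. For Rab17 the other, 1422178_a_at, averaged lower after 4 rounds, at 1.06 against 1.86 at 0.1 pg and 0.74 against 1.15 at 1 pg.

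Lower after 4 rounds were Rab8b and Rab32. Rab8b, which acts in exocytosis at the plasma membrane, read 2.68, 1.79 and 1.90 after 4 rounds, against 3.10, 4.17 and 4.44 after 2 rounds at 0.1 pg, and 1.04, 2.47 and 0.23, against 3.20, 3.30 and 2.63 at 1 pg. The groups did not overlap at either input, at an average difference of -1.79 (SE 0.40, adjusted p = 0.0232, limma), and bulk read 0.59. The other probe set of Rab8b, 1426799_at, was not called and averaged higher after 4 rounds. It averaged 0.87 against 0.66 at 0.1 pg and 1.86 against 1.10 at 1 pg, with 2.17 in bulk. Rab32 read -0.28, -0.59 and -0.80 after 4 rounds, against 1.05, 1.48 and 2.24 after 2 rounds at 0.1 pg, and -1.72, -0.72 and -0.80, against -0.53, -0.86 and 0.96 at 1 pg. It overlapped at 1 pg, at an average difference of -1.54 (SE 0.36, adjusted p = 0.0293, limma). Leaving out 1 array gave counts between 3 and 7, with 3 without replicate 2 or replicate 3 of 0.1 pg or replicate 1 of 1 pg after 4 rounds, and Rab1a, Rab6a and Rab17 were called in all 12 of these fits, Rab32 in 7, Rab8b in 6 and Rab14 in 2. With genes taken as the median over their probe sets none of Rab1a, Rab6a and Rab17 was called, and the 2 genes called were Rab22a and Rab32. Of all 18193 genes, 268 were lower and 308 higher this way.

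Among probe sets, 8 of 132 were higher after 4 rounds, or 6.06%, against 1.99% of all probe sets, and 4 were lower, or 3.03%, against 1.91%. Those called beside the representatives included 1454988_s_at of Rab22a, a RAB of early endosomes, which averaged 2.58 after 4 rounds and 0.51 after 2 rounds (difference 2.07, adjusted p = 0.0157) with no overlap of the 6 and 6 arrays. The probe set 1449798_at of Rab3c averaged -3.34 after 4 rounds and -1.86 after 2 rounds (difference -1.48, adjusted p = 0.00839), again with no overlap.

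Whether the effect of rounds depended on the input was tested as an interaction. It was called in 2 members. Of the 59, 1 was higher, or 1.69%, against 3.03% of all genes, and 1 was lower, or 1.69%, against 0.956%. In Rab6a, 4 against 2 rounds made a difference of 0.03 at 0.1 pg and 4.19 at 1 pg, and these effects differed by -4.16 (SE 0.87, adjusted p = 0.0197, limma). At 0.1 pg Rab6a averaged below the array median after both 4 rounds, at -0.89, and 2 rounds, at -0.92. In Rab4b, which returns receptors rapidly to the cell surface, the arrays read 3.09, 3.78 and 4.00 after 4 rounds, against 1.81, 0.56 and 0.56 after 2 rounds at 0.1 pg, and 1.91, 2.83 and 0.35, against 2.94, 3.20 and 3.24 at 1 pg. The arrays after 4 rounds lay above those after 2 rounds at 0.1 pg and below them at 1 pg, with effects of 2.65 and -1.43 that differed by 4.08 (SE 0.90, adjusted p = 0.0230, limma). Neither was called without replicate 1 of 0.1 pg or of 1 pg after 4 rounds or without replicate 1 or 3 of 1 pg after 2 rounds. The count was 1, Rab6a, without replicate 2 of 0.1 pg after 4 rounds and 4, with Rab25 and Rab27b, without replicate 3 of 0.1 pg after 2 rounds. Among probe sets, 3 of 132 were lower, or 2.27%, against 1.13% of all probe sets, and 2 were higher, or 1.52%, against 2.46%.

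**Figure D5:**
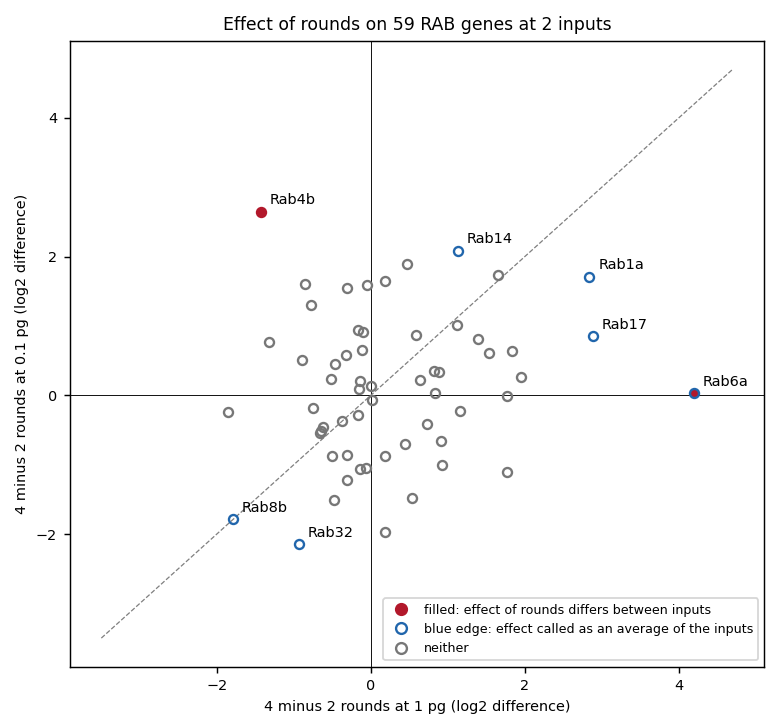
Effect of 4 against 2 rounds on the 59 RAB genes at 1 pg (horizontal axis) and at 0.1 pg (vertical axis), as log2 differences of group means of 3 arrays, with equal effects along the dashed line. Rab6a, at 4.19 and 0.03, and Rab4b, at -1.43 and 2.65, are filled because their effects differed between the inputs, and the 6 genes with a blue edge were called on average.

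The amplified groups were set against bulk as the mean of the 6 groups, and the single unamplified bulk array is assumed to vary like the others. The p-values here rest on the spread between amplifications, since the spread of bulk was not measured. In limma 0 of the 59 members were called, against 0.704% of all genes lower and 0.121% higher, and 8, or 13.6%, had an unadjusted p under 0.05, against 13.4% of all genes. The lowest p was that of Rab14, which over the 16 amplified arrays had a lowest level of -1.72, a median of 0.75 and a highest of 3.54, against 3.89 in bulk. All 16 amplified arrays were below bulk, at a difference of -3.23 (SE 0.76, adjusted p = 0.0513). Of the other Rab14 probe sets, 1415686_at had 0 of the 16 arrays above bulk, 1419244_a_at 1 and 1419246_s_at 2. In contrast 1441992_at had 7, 1439687_at 8 and 1419245_at 15 above bulk. Rab14 was called on the deposited values and with median centering alone. It was also called without replicate 1 of 0.1 pg after 2 rounds, replicate 1 or 3 of 10 pg or replicate 2 or 3 of 1 pg after 4 rounds, and without the last of these Rab11b was called too. Of the calls over all probe sets 6.67% were higher, against 22.2% on the deposited values. Among the 132 probe sets 1 was past the threshold, or 0.758%, against 1.03% of all probe sets lower, and 0 were higher, against 0.0733%. This is 1447776_x_at of Rab6a, which had a highest level of 1.10 on amplified arrays, against 3.22 in bulk (difference -4.39, SE 0.95, adjusted p = 0.0349 in limma). That probe set is of a kind that may match several transcripts. In 1448305_at and 1448304_a_at of Rab6a, 4 and 7 of the 16 amplified arrays lay above bulk.

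Calls were also compared within the paralog sets. Of Rab3a to Rab3d, Rab3b was called at 0.1 against 10 pg, whereas Rab3a differed by -0.14, Rab3c by 0.15 and Rab3d by -0.02, with adjusted p of 0.842, 0.944 and 0.992. Rab3c averaged 1.26 ± 0.85 at 0.1 pg and 1.11 ± 1.25 at 10 pg after 4 rounds (SD, n = 3 each), against 4.06 in bulk. Rab5a to Rab5c, the RABs of early endosome fusion, were called in none of the 6 comparisons, with differences between 0.1 and 10 pg after 4 rounds of 0.65, -0.16 and -0.04. Rab5b lay near the array median, at -0.22 ± 0.70 at 0.1 pg and -0.06 ± 0.33 at 10 pg, and Rab5c at 0.59 ± 1.17 and 0.64 ± 0.20 (SD, n = 3 each). Rab11a and Rab11b were both called at 0.1 and at 1 pg. Differences between the members of a set were not tested.

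Other RABs of exocytosis and of neuronal endosomes were not called between 0.1 and 10 pg. Rab8a, which carries membrane to the primary cilium, averaged 3.21 ± 0.57 at 0.1 pg and 4.27 ± 1.04 at 10 pg after 4 rounds (SD, n = 3 each), against 3.22 in bulk. Rab8b averaged 2.12 ± 0.49 at 0.1 pg and 0.79 ± 0.56 at 10 pg, all 3 arrays higher at 0.1 pg, with an adjusted p of 0.149. Rab15, an endosomal RAB expressed in neurons, averaged 1.56 ± 0.46 at 0.1 pg and 2.09 ± 0.41 at 10 pg, against 2.88 in bulk, and 4.57 on the 10 pg array after 2 rounds. Rab21 averaged 1.08 ± 1.49 at 0.1 pg and 2.50 ± 1.47 at 10 pg, with overlapping arrays.

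After 4 rounds, correlation with bulk over the 59 members was lowest at 0.1 pg, while arrays of 1 and 10 pg overlapped. The highest value at 1 pg, 0.823, lay above the lowest at 10 pg, 0.821. As a description, Pearson's r with bulk over the members, which share the array and its scaling, was 0.68 to 0.73 at 0.1 pg, 0.74 to 0.82 at 1 pg and 0.82 to 0.90 at 10 pg after 4 rounds. After 2 rounds it was 0.53 to 0.63 at 0.1 pg, 0.72 to 0.77 at 1 pg and 0.72 on the 10 pg array. Over all genes the values were 0.72 to 0.75 at 0.1 pg and 0.85 to 0.86 at 10 pg after 4 rounds and 0.65 to 0.68 at 0.1 pg after 2 rounds. Of the 59 members, 9 to 11 lay more than 2 below bulk at 0.1 pg after 4 rounds. At 1 pg after 4 rounds 5 did on each array, at 10 pg 2 to 6, and at 0.1 pg after 2 rounds 11 to 15. Within 1 of bulk lay 31 to 32 members at 0.1 pg after 4 rounds and 34 to 35 at 1 pg. At 10 pg after 4 rounds 44, 43 and 31 did, the last on replicate 3. The 10 pg array after 2 rounds had 5 that far below and 6 that far above bulk.

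The proteins that control RABs were read from lists with 99 measured genes of 107. At 0.1 against 10 pg after 4 rounds 9 were lower and 6 were higher, against 4.99% of all genes in each direction, so both directions were found here. Among the 39 effectors 5 were lower, led by Ehbp1 at -3.73 (adjusted p = 0.0161), which links RAB8 and RAB10 membranes to actin, and Osbpl1a at -3.46 (adjusted p = 0.00195), a lipid-binding partner of RAB7. The 2 effectors that were higher are Rbsn at 2.91 (adjusted p = 0.0365), a RAB5 effector of early endosomes, and Tbk1, a kinase, at 1.92 (adjusted p = 0.0229). Rims1, the active zone protein that binds RAB3, differed by -3.04 (adjusted p = 0.00449) and Myrip, which couples RAB27A to myosin, by -2.69 (adjusted p = 0.00474). Of the 29 GTPase-activating proteins 2 were lower and 2 higher, the higher ones being Tbc1d1 at 3.51 (adjusted p = 0.00563) and Tbc1d20 at 3.04 (adjusted p = 0.0178), which act on RAB10 and RAB1 in mammalian cells. Of the 24 exchange factors 1 was lower and 2 were higher, and of the 7 genes of GDI and prenylation 1 was lower, Gdi2 at -1.94 (adjusted p = 0.0352). Median differences were 0.58 for GTPase-activating proteins, 0.15 for effectors and 0.04 for exchange factors, against 0.13 for all genes. In the 4 against 2 rounds comparison 3 of the 99 were lower, against 1.9% of all genes, and 1 was higher, against 2.36%. At 1 against 10 pg after 4 rounds Osbpl1a and Myrip were lower, or 2 of the 99, against 0.577% of all genes, and 0 were higher, against 0.0715%.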

How the data were processed

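Hybridizations to 17 Affymetrix mouse arrays were analysed. RMA 2.0 was used by the authors to summarize probes, with the upper decile according to their methods, and they deposited log2 values between 1.56 and 15.8. The medians of the arrays lie between 5.64 and 6.01, so the centering and scaling that the methods describe were applied here, times the mean range of 4.64. Of 45101 probe sets, 64 controls were left out. Of the others 34945 carry 1 symbol, 932 several and 9160 none. A gene is its single-symbol probe set with the highest mean. The tests used limma 3.58.1 under R 4.3.3 (7 group means, eBayes defaults, 16.4 total degrees of freedom), with Benjamini-Hochberg adjustment over 45037 probe sets. On simulated data, for 0.1 against 10 pg after 4 rounds with 45037 probe sets, limma called 21 of 100 simulated log2 changes of 2, and 88 of 100 of size 4. Only these probe sets were changed, with Gaussian noise of the same SD in all groups. The data gave 2173 lower and 1818 higher calls there, so these shares need not hold for them. Tables and figures used python 3.11.15, numpy 2.4.6, pandas 2.3.3 and matplotlib 3.10.9. No 2 arrays shared more than 0.925% of values.

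Described in full were members called in any comparison, the 6 highest and 6 lowest in bulk, Rab3a to Rab3d, Rab5a to Rab5c, Rab11a with Rab11b, and Rab8a, Rab8b, Rab10, Rab15 and Rab21. The members, lists and tests were chosen with earlier results of these data known. Alternatives were other scalings, a filter on low values, other choices of probe set, the methods' t-test, a false discovery rate of 0.1%, only the groups compared, a replicate block and each array left out. Marker lists of inhibitory neurons, microglia, vessels and blood were also read.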

Additional observations from a re-analysis of the deposited data

Results flagged for a closer look

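An effect of 4 against 2 rounds that differed between 0.1 and 1 pg was found in 5 RAB probe sets by the interaction term of limma. Rab6a in 1448305_at stood out with a difference between the effects of -4.16 (adjusted p = 0.0197, limma), with effects of 0.03 at 0.1 pg and 4.19 at 1 pg. At 0.1 pg it averaged -0.89 after 4 rounds and -0.92 after 2 rounds. Both lie below the array median, where changes are less certain in size. Rab4b in 1451643_a_at had a difference of 4.08 (adjusted p = 0.0230), with an effect of 2.65 at 0.1 pg and -1.43 at 1 pg.

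The other 3 are probe sets that do not stand for their gene. Rab7b in 1444063_at, a RAB of late endosomes, had a difference of -2.88 (adjusted p = 0.0347), with effects of -0.08 at 0.1 pg and 2.79 at 1 pg. It read 1.11, 0.99 and 2.17 after 4 rounds, against -1.10, -1.46 and -1.55 after 2 rounds at 1 pg, without overlap. Rab34 in 1416591_at, a Golgi and ciliary RAB, had a difference of 2.83 (adjusted p = 0.0307), with effects of 1.83 at 0.1 pg and -0.99 at 1 pg. Rab28 in 1453406_a_at, a RAB of photoreceptor cilia, had a difference of -2.40 (adjusted p = 0.0351), with effects of -1.59 at 0.1 pg and 0.81 at 1 pg. The representative probe sets of these 3 genes gave 1.65 for Rab7b, -1.05 for Rab34 and -0.12 for Rab28, opposite in sign for Rab7b and Rab34, and none was called. Of all probe sets, 1.13% were called lower and 2.46% higher in this comparison.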

How the results depend on the processing

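The counts of called members depended on the threshold and the arrays more than on the scaling. With a false discovery rate of 0.1% the counts were 3 at 0.1 against 10 pg after 4 rounds (Rab1a, Rab6a and Rab11b) and 0 at 1 against 10 pg, at 0.1 against 1 pg, for 4 against 2 rounds and for the interaction, where 5, 16, 15 and 10 of the 59 had an unadjusted p under 0.05 (8.47%, 27.1%, 25.4% and 16.9%, against 9.86%, 15.6%, 23.4% and 22.1% of all genes). With the methods' t-test they were 3 (Rab11a, Rab11b and Rab17) and, in the next 3 of these comparisons, 0, with 8, 10 and 11 at an unadjusted p under 0.05. Shares of all genes were not taken for the calls at 0.1% or for these unadjusted p-values of the t-test. Over all 45037 probe sets that t-test called 829 lower and 769 higher at 0.1 against 10 pg. It called 0 at 1 against 10 pg and at 0.1 against 1 pg, and 2 lower and 1 higher for 4 against 2 rounds. In the last 2 of these it pooled arrays of unlike rounds or input into 1 group. Taking each gene as the median over its probe sets, 8 members were called at 0.1 against 10 pg, of which 5 were among the 9 (Rab3b, Rab6a, Rab6b, Rab11a and Rab31), with Rab2a, Rab7 and Rab21 added and Rab1a, Rab10, Rab11b and Rab14 lost. Of all 18193 genes, 817 were lower and 674 higher this way. In the same way 0 were called at 1 against 10 pg, 2 for 4 against 2 rounds, and 1, Rab10, for amplified arrays against bulk. Of all 18193 genes, 60 were lower and 11 higher at 1 against 10 pg. For 4 against 2 rounds these were 268 and 308, and against bulk 160 and 13. Deposited values and median centering alone each gave 1, Rab14, for amplified arrays against bulk. Over all 45037 probe sets the deposited values gave 554 lower and 158 higher there, and median centering alone 786 and 85. Only the compared groups gave 0 at 1 against 10 pg and 5 at 0.1 against 1 pg, and probe sets below the median left out also gave 5 there. Over all 45037 probe sets the compared groups alone gave 42 lower and 1 higher at 1 against 10 pg. At 0.1 against 1 pg they gave 334 and 40, and the filter gave 568 and 128 of 22519. Rab31 at 0.1 against 10 pg was 0.0278 without probe sets ending in _s_at, _x_at or _a_at (adjusted p = 0.984).

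Leaving out 1 array gave 4 to 9 members at 0.1 against 10 pg, 0 to 3 at 1 against 10 pg, 2 to 6 at 0.1 against 1 pg, 3 to 7 for 4 against 2 rounds, 0 to 4 for the interaction and 0 to 2 for amplified arrays against bulk. The calls over all 45037 probe sets moved too, with 1083 to 2051 lower and 418 to 1763 higher at 0.1 against 10 pg. They were 81 to 313 lower and 5 to 146 higher at 1 against 10 pg. At 0.1 against 1 pg they were 213 to 612 and 29 to 282, and for 4 against 2 rounds 325 to 1496 and 350 to 1391. For the interaction they were 84 to 1183 and 257 to 2142, and against bulk 291 to 641 and 12 to 85. The replicate block gave 1 at 1 against 10 pg, where Rab11b was lost, and 7 at 0.1 against 10 pg, where Rab6b and Rab14 were lost. Over all 45037 probe sets it gave 251 lower and 25 higher at 1 against 10 pg, and 2025 and 1514 at 0.1 against 10 pg. Deviations of same-numbered arrays from their group means had a mean r of -0.00719, from -0.199 to 0.139 over 30 pairs. The numbers thus showed no pairing on average, and pairing between single groups was not tested.

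Over all probe sets at 0.1 against 10 pg after 4 rounds, 45.6% of calls were higher, against 55.3% on the deposited values, while the members stayed at 9 lower and 0 higher. The members' median level in each group also depends on the zero of the scale and on the probe set chosen, and as a median over probe sets it was 0.02 for 0.1 pg with 4 rounds and 0.36 for bulk. Of the results for single genes, 286 kept their side of the threshold, 125 lost the call in the same direction and 1 changed sign.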
